A study of Mus musculus with 6 samples.

Results

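The genes described here are 10 enzymes of serine, glycine and one-carbon metabolism, namely Phgdh, Psat1, Shmt1, Shmt2, Mthfd1, Mthfd2, Gldc, Amt, Gcsh and Dld. They were chosen by name as members of the pathway, with their measured FPKM in the same 3 tumors known, and they make up 10 of the 34245 genes in the table. All of their levels are therefore given as a description and were not tested.

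The study asked how loss of 1 allele of Dnmt3b, a de novo DNA methyltransferase, bears on lymphomas of FVB mice. RNA was sequenced from 3 independent Dnmt3b+/- peripheral T-cell lymphomas (PTCL) of the lymph node, called tumors 1, 2 and 3, and the mice carried a conventional Dnmt3b knockout allele and no other treatment named in the labels. The ages of the 3 mice were not given in the sources used here, and control CD8+ T cells and whole-genome bisulfite sequencing were not analysed here. The libraries held 30726570, 18969988 and 20770928 reads in tumors 1, 2 and 3, so that the precision for a rare transcript was best in tumor 1.

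Serine is made from a glycolytic intermediate and is then split by serine hydroxymethyltransferase into glycine and a one-carbon unit carried by folate. The mitochondrial glycine cleavage system can take a further one-carbon unit from glycine, and folate enzymes pass these units to purines, thymidylate and methionine, the precursor of the methyl donor used by DNA methyltransferases. Proliferating T cells are known to draw on this pathway, in particular on its mitochondrial branch.

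Levels were compared as FPKM, that is, fragments per kilobase of exon per 1000000 reads, which can be set side by side between genes. Of the 10 genes, 9 had over 0.2 FPKM in each of the 3 tumors, against 36.7% of all genes in the table, and the remaining gene, Gldc, was expressed in tumor 1 alone. The median over the 10 genes of the mean FPKM was 10.4, beside 3.69 over the 14733 genes with a mean FPKM above 0.2. In each tumor Phgdh and Shmt2 held the highest levels among the genes present in all tumors, and Amt the lowest. Summed over the 10 genes, tumors 1, 2 and 3 reached 180, 131 and 126 FPKM. Without Gldc these sums were 148, 131 and 126, and after median-of-ratios scaling they were 134, 134 and 135, so that the higher sum of tumor 1 was no longer there.

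**Figure D1:**
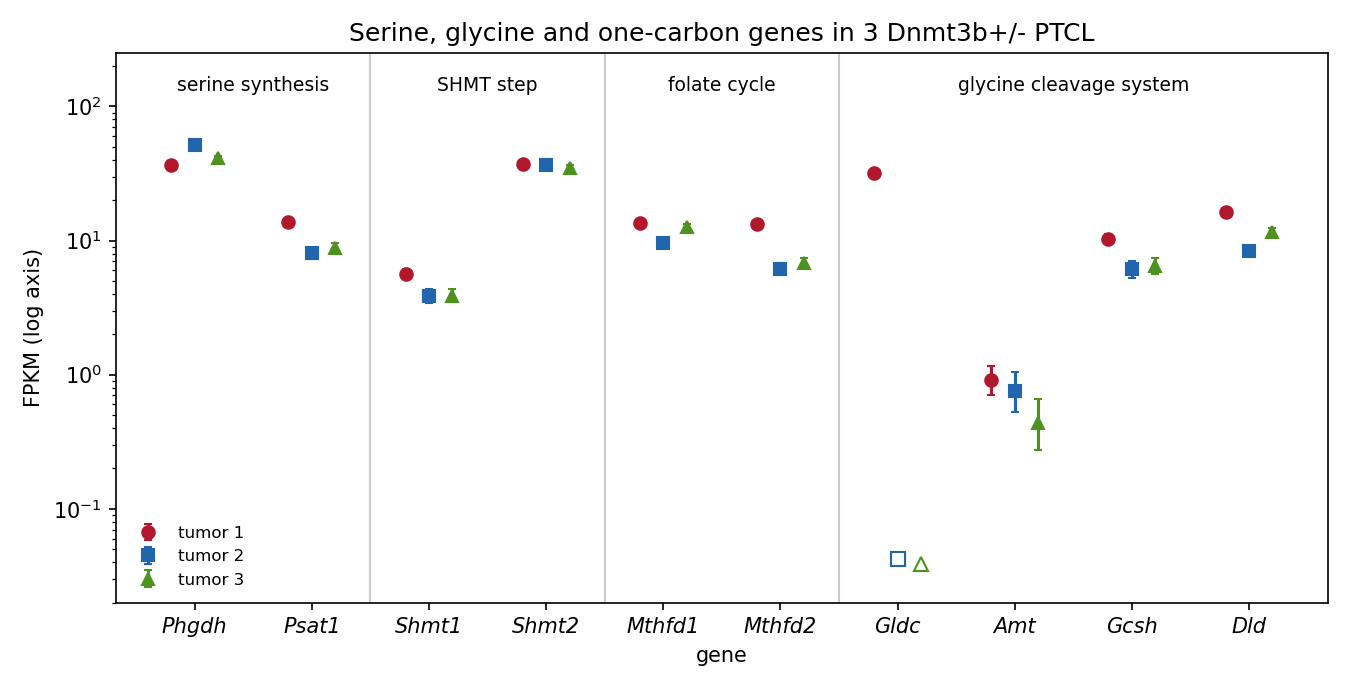
FPKM of the 10 genes (log axis) in tumors 1, 2 and 3, grouped by role, with 95% Poisson intervals for counting error. Open symbols mark tumors without a read, drawn at the FPKM of 3 reads, and Gldc is the only gene with such symbols, in tumors 2 and 3.

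Phgdh, which catalyzes the first step of serine synthesis from glycolysis, was the most abundant of the 10 genes on average. It had 36.7, 51.4 and 41.0 FPKM in tumors 1, 2 and 3 (mean 43.1 ± 7.56, SD, n = 3). Tumor 2 was the highest, 1.40-fold above tumor 1, and as deposited Phgdh was the single member with its highest level outside tumor 1. Psat1, the aminotransferase of the next step, had 13.8, 8.04 and 8.86 FPKM in tumors 1, 2 and 3 (mean 10.2 ± 3.11). Tumor 1 was thus the highest for Psat1 and the lowest for Phgdh, and the ratio of Phgdh to Psat1 within a tumor was 2.66 in tumor 1 (95% confidence interval 2.51 to 2.83), 6.39 in tumor 2 (5.86 to 6.98) and 4.63 in tumor 3 (4.26 to 5.03). These exact intervals, like all others here, cover counting error only and not the spread between mice. Psph, the phosphatase that completes the route, differed little between tumors, with 5.84, 4.82 and 5.48 FPKM.

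Shmt2, the mitochondrial serine hydroxymethyltransferase, was the most even of the 10 genes. It had 37.0, 36.7 and 34.8 FPKM in tumors 1, 2 and 3 (mean 36.2 ± 1.19), a range of 1.06-fold. Shmt1, the cytosolic enzyme, had 5.67, 3.88 and 3.88 FPKM (mean 4.48 ± 1.03), with tumor 1 the highest and tumors 2 and 3 not separable by counting error (ratio 1.00, 0.849 to 1.18). Within a tumor, Shmt2 exceeded Shmt1 6.53-fold in tumor 1 (6.01 to 7.10), 9.45-fold in tumor 2 (8.35 to 10.7) and 8.97-fold in tumor 3 (7.96 to 10.1). The mitochondrial transcript was thus the major form in every tumor, with the smallest excess in tumor 1. The exons of Shmt1 share 184 bases with Smcr8 and those of Shmt2 share 32 bases with Ndufa4l2, genes on the opposite strand, and whether strand was used in counting was not given in the sources used here. Smcr8 had 7.59, 11.8 and 8.02 FPKM, so reads over the bases shared with Shmt1 cannot be told apart, while Ndufa4l2 stayed below 0.5 FPKM in each tumor.

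Mthfd1, the cytosolic trifunctional folate enzyme, had 13.6, 9.57 and 12.6 FPKM in tumors 1, 2 and 3 (mean 11.9 ± 2.08). Mthfd2, the mitochondrial dehydrogenase and cyclohydrolase, had 13.3, 6.14 and 6.83 FPKM (mean 8.75 ± 3.94) and was 2.17-fold higher in tumor 1 than in tumor 2 (1.94 to 2.42). The ratio of Mthfd2 to Mthfd1 was 0.981 in tumor 1 (0.914 to 1.05), 0.642 in tumor 2 (0.568 to 0.724) and 0.545 in tumor 3 (0.489 to 0.605). In tumor 1 the transcripts did not differ beyond counting error, whereas Mthfd1 prevailed in the other tumors. The mitochondrial to cytosolic ratio was highest in tumor 1 at this folate step and lowest in tumor 1 at the serine hydroxymethyltransferase step.

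**Figure D2:**
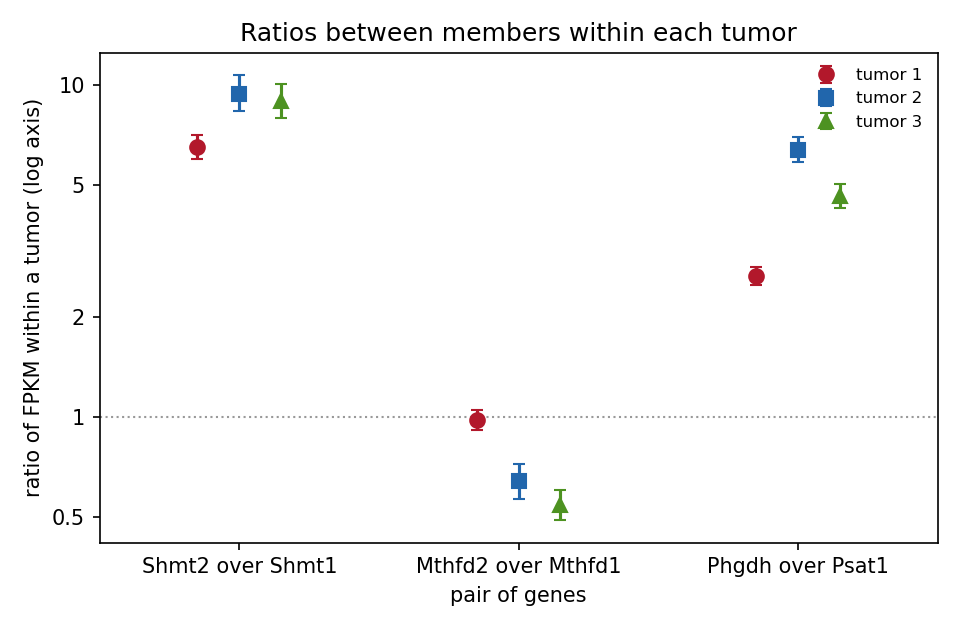
Ratios of FPKM between pairs of members within tumors 1, 2 and 3 (log axis), with exact 95% intervals for counting error and a dotted line at a ratio of 1. Tumor 1 has the lowest Shmt2 to Shmt1 ratio (6.53), the highest Mthfd2 to Mthfd1 ratio (0.981) and the lowest Phgdh to Psat1 ratio (2.66).

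Gldc encodes glycine decarboxylase, the subunit that opens the glycine cleavage reaction. The gene (ENSMUSG00000024827) lies on the minus strand at chr19:30098449-30175418 of mm10, and its main transcript has 25 exons. The window from 250 bases before to 50 bases after its start site is shown with those of Phgdh and Shmt2, which were expressed in all 3 tumors, because the series concerns DNA methylation. The windows lie at chr19:30175392-30175691, chr3:98339920-98340219 and chr10:127522395-127522694 of GRCm38.p6 (RefSeq), all on the minus strand, and capitals mark each CG dinucleotide.
Gldc: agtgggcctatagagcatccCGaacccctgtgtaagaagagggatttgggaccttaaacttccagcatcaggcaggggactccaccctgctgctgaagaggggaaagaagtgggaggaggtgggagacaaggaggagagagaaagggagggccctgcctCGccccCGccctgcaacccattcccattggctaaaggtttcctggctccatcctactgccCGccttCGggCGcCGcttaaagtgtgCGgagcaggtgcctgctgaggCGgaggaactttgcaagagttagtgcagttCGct
Phgdh: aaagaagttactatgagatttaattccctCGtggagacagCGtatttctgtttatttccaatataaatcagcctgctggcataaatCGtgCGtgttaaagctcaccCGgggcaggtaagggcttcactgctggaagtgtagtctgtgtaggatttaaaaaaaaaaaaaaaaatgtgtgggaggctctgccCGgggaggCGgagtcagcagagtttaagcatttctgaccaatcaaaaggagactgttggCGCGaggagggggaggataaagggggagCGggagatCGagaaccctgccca
Shmt2: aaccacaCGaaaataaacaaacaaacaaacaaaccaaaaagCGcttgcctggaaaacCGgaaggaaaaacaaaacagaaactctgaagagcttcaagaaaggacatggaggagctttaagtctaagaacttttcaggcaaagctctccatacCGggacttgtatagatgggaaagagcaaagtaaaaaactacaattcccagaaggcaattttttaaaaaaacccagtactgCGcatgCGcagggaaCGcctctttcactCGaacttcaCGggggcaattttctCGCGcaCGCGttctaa
The Gldc window holds 10 CG dinucleotides, the Phgdh window 11 and the Shmt2 window 13, against a median of 7 over 32851 windows of the same length. Of those windows, 56.5% held fewer than the Gldc window, 58.6% fewer than the Phgdh window and 62.1% fewer than the Shmt2 window. All 10 members had a window in the RefSeq table, Psat1 having 2. The E-box CACGTG bound by MYC and MAX and the motif TGATGNAA, a core of the element of ATF4 and C/EBP proteins, were searched on both strands, and neither was found in any of the 11 windows. Of all windows, 7.15% hold the first motif and 3.97% the second. Methylation of these windows was not analysed here.

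Gldc had 31.9 FPKM in tumor 1 (3678 reads), and no read in tumor 2 or in tumor 3. Its level in tumor 1 lay close to those of Phgdh and Shmt2 in the same tumor and ranked 967 among 34245 genes. A count of 0 was taken to allow up to 3 reads, which is 0.0421 FPKM in tumor 2 and 0.0385 FPKM in tumor 3, while the upper ends of the 95% Poisson intervals were 0.0518 and 0.0473 FPKM. By the 3-read limit, Gldc was at least 757-fold higher in tumor 1 than in tumor 2 and at least 829-fold higher than in tumor 3. The mean of 10.6 ± 18.4 FPKM rests on tumor 1, and without that tumor the mean was 0.0121 FPKM, from the small values that the table holds for Gldc without a read. Of the total FPKM of Gldc, 99.9% came from tumor 1. Among the 11197 genes averaging at least 1 FPKM, 14 genes (0.125%) had over 99% of their total in that tumor. Gldc was among them and reached that average through tumor 1 alone.

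The remaining subunits of the glycine cleavage system did not show the same pattern. Amt, the aminomethyltransferase, had 68, 35 and 22 reads in tumors 1, 2 and 3, or 0.908, 0.757 and 0.435 FPKM (mean 0.700 ± 0.242). It was the lowest member in tumor 1, and its ratio of tumor 1 to tumor 2 of 1.20 (0.787 to 1.86) was within counting error, whereas its ratio of tumor 1 to tumor 3 of 2.09 (1.28 to 3.55) was beyond it. Gcsh, the lipoylated carrier protein, had 10.3, 6.11 and 6.43 FPKM (mean 7.60 ± 2.31). Dld, the dihydrolipoamide dehydrogenase that also serves other complexes, had 16.5, 8.36 and 11.6 FPKM (mean 12.2 ± 4.07). For Gcsh and Dld tumor 1 was the highest, by less than 2-fold over either other tumor. In tumor 1, Gldc exceeded Dld 1.94-fold (1.83 to 2.05), Gcsh 3.11-fold (2.83 to 3.42) and Amt 35.1-fold (27.6 to 45.3). Transcripts of all 4 subunits were thus found in tumor 1 alone, at unequal levels, whereas tumors 2 and 3 had Amt, Gcsh and Dld without detectable Gldc. Summed over the 4 subunits, FPKM was 59.5, 15.2 and 18.5 in tumors 1, 2 and 3, and without Gldc 27.6, 15.2 and 18.5.

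The genes beside Gldc were looked at after its values were seen. Uhrf2, which encodes a ubiquitin ligase that binds methylated DNA and is the next gene on one side, had 6.33, 4.66 and 4.90 FPKM in tumors 1, 2 and 3, and Mbl2, the next gene on the other side, had no read in any tumor. Of the next 6 genes on each side, Il33, an alarmin cytokine gene, was the least even of those averaging at least 1 FPKM, with 2.90 and 1.37 FPKM in tumors 1 and 2 and no read in tumor 3. Asah2, a ceramidase gene, had 1.18, 0.495 and 0.339 FPKM, and Cstf2t had 9.32, 8.63 and 11.3 FPKM. Of the 6 neighbours averaging over 0.2 FPKM, 5 were highest in tumor 1 as deposited, beside 49.8% of all genes with such an average, and 3 after median-of-ratios scaling, beside 37.8%. Each of the 6 had reads in tumor 2, where Gldc had none.

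**Figure D3:**
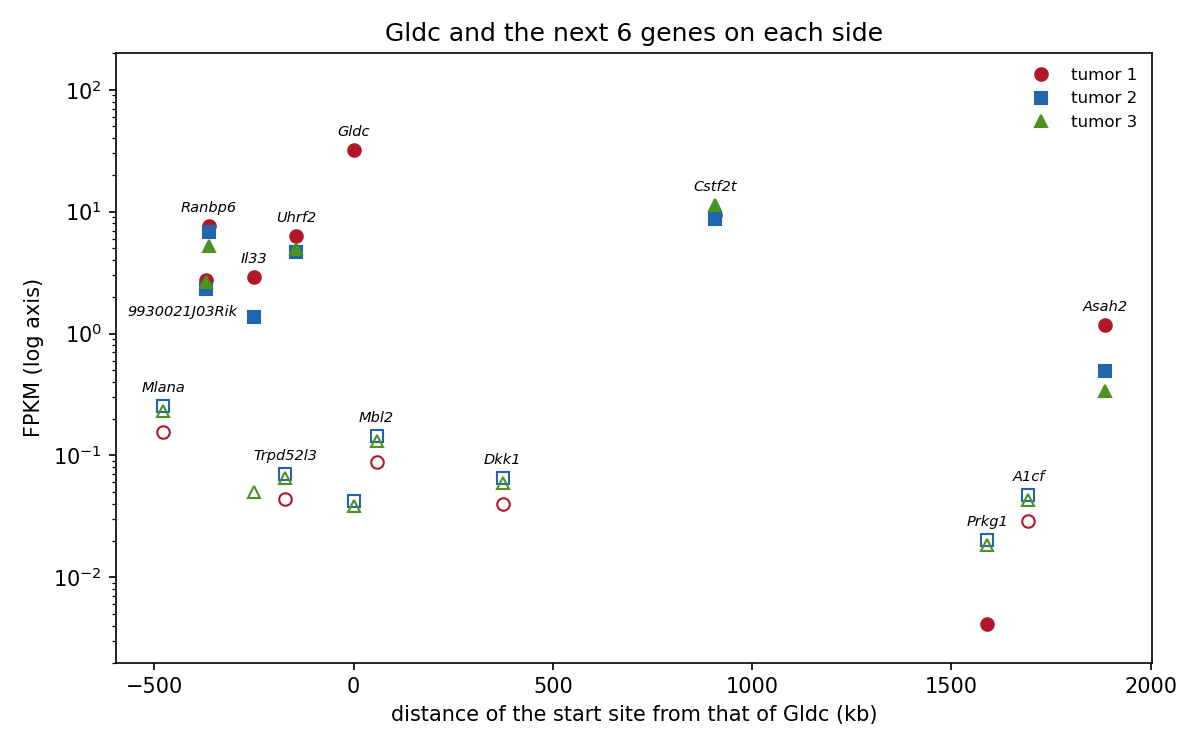
FPKM (log axis) of Gldc and the next 6 genes on each side in tumors 1, 2 and 3, by the distance in kb of each start site from that of Gldc, with positive distances before the Gldc start. Open symbols mark tumors without a read, drawn at the FPKM of 3 reads, and Gldc reaches 31.9 FPKM in tumor 1 while Uhrf2 differs little between tumors.

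The 5 genes whose shares over the 3 tumors were closest to those of Gldc, among 11181 gene symbols averaging at least 1 FPKM outside the 10 members, were AL513022.1, Slc6a19, Cldn4, Trav7-1 and Saa3. Closeness was measured as the summed absolute difference in shares over 3 tumors. Slc6a19, a transporter of neutral amino acids, had 14.1 FPKM in tumor 1 and no read in tumors 2 and 3, as did AL513022.1, with 27.0 FPKM in tumor 1. Cldn4, a tight junction gene, had 26.3 FPKM in tumor 1, with 0 reads in tumor 2 and 1 read in tumor 3. Trav7-1, a variable segment of the T-cell receptor, had 178 FPKM in tumor 1 and 2 reads or fewer in each other tumor. Saa3, an acute phase gene, had 34.4 FPKM in tumor 1 and 4 and 1 reads in tumors 2 and 3. None of the 5 lies on chromosome 19 with Gldc, while AL513022.1 and Slc6a19 both lie on chromosome 13. Whether AL513022.1 and Slc6a19 were read from separate loci was not examined. The genes closest to the sum over the 10 members included Zfp292, Cstf1, Polr1b and Gm28198, of which Zfp292 had 11.9, 8.71 and 8.40 FPKM.

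Of the 10 members, 3 had a highest tumor at least 2-fold above the lowest, namely Gldc, Mthfd2 and Amt. The 9 members averaging at least 1 FPKM included 2 of these, Gldc and Mthfd2. Of the 11197 genes with such an average, 34.4% had a range as wide. Gldc reached that average through tumor 1 alone, so its wide range was fixed by that filter. Amt lay just inside the threshold at 2.09-fold and Dld just outside it at 1.97-fold. After the libraries were scaled by median-of-ratios factors, Gldc alone had a range of at least 2-fold, against 32.5% of genes. With each tumor rescaled to a sum of 1000000, 3 of the 9 members had such a range, against 39.4% of genes. With scaling to Cd3d, Cd3e, Cd3g and Lck, chosen after the values were seen, 5 of the 9 did, against 47.0%. These genes were all lowest in tumor 1, and the factors for tumors 1, 2 and 3 were 1.19, 0.905 and 0.909. Other T-cell markers went another way, with Cd8a, Cd8b1, Trbc2, Cd247 and Cd2 lowest in tumor 2 and Cd5 in tumor 3. The shares of members and of genes thus depended on the scale of the libraries, and Gldc differed from the other members by the size of its range.

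As deposited, 9 of the 10 members had their highest level in tumor 1 and Phgdh had it in tumor 2. Of the genes averaging at least 1 FPKM, tumor 1 was the highest for 50.6%, tumor 2 for 33.7% and tumor 3 for 15.7%. The median-of-ratios factors multiplied tumors 1, 2 and 3 by 0.906, 1.02 and 1.06. With them tumor 1 was the highest for 7 members, tumor 2 for Phgdh and Shmt2, and tumor 3 for Mthfd1. Among the genes averaging at least 1 FPKM, tumor 1 was then the highest for 36.9%, tumor 2 for 36.7% and tumor 3 for 26.4%. These shares of genes leave out levels as low as that of Amt, and without Amt tumor 1 was the highest for 8 of 9 members as deposited and for 6 of 9 after this scaling. Gldc is in both counts and reached an average of 1 FPKM through tumor 1 alone, so its place in them was fixed by that filter. The proliferation genes had their highest level in tumor 1 for 11 of 12 genes (10 after median-of-ratios scaling), 6 of the 12 had a range of at least 2-fold, and their summed FPKM was 373, 242 and 200. Among these genes, Pcna, the sliding clamp of DNA replication, had 88.0, 55.9 and 63.6 FPKM, Mcm3, a subunit of the replicative helicase, had 36.2, 23.4 and 23.1 FPKM, and Birc5, a mitotic gene, had 21.5, 5.67 and 4.0 FPKM. Their part in the higher levels of members in tumor 1 was not tested.

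The wider pathway was followed in 65 further genes. Of these, 46 had over 0.2 FPKM in every tumor and 42 averaged at least 1 FPKM, and 9 of the 42 had a range of at least 2-fold, against 34.4% of all genes averaging at least 1 FPKM. Tumor 1 was the highest for 27 of the 42 (50.6% of all genes), tumor 2 for 10 (33.7%) and tumor 3 for 5 (15.7%). After median-of-ratios scaling these counts were 18 (36.9% of all genes), 9 (36.7%) and 15 (26.4%). The number highest in tumor 1 thus depended on the scale of the libraries.

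**Figure D4:**
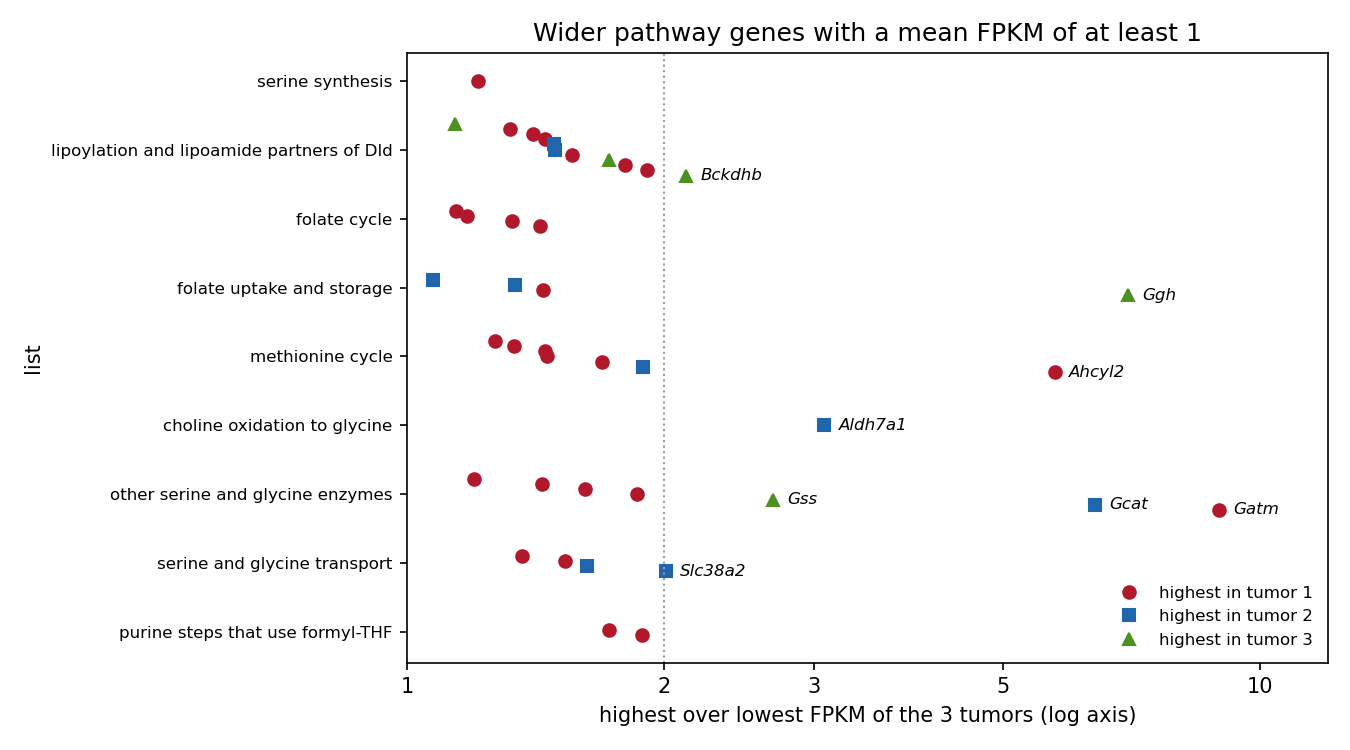
Highest over lowest FPKM of the 3 tumors (log axis) for the reported wider pathway genes averaging at least 1 FPKM, by list, with symbols for the tumor with the highest level and a dotted line at 2-fold. The widest range is that of Gatm, at 8.94-fold.

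In the folate cycle, Mthfd1l, the mitochondrial synthetase that releases formate, had 11.1, 8.38 and 9.38 FPKM, and Tyms, thymidylate synthase, had 6.02, 5.34 and 5.13 FPKM. In folate uptake and storage, 1 of 4 genes averaging at least 1 FPKM had a range of at least 2-fold. Ggh, a hydrolase of stored folates, had 1.59, 0.483 and 3.38 FPKM and was highest in tumor 3, while the mitochondrial folate carrier Slc25a32 (7.59, 6.28 and 5.26 FPKM) and the plasma membrane carrier Slc19a1 (3.93, 4.97 and 3.72 FPKM) differed less. Both purine enzymes that use formyl folate were lowest in tumor 2 and, as deposited, highest in tumor 1, with 26.1, 15.2 and 22.8 FPKM for Gart and 12.6, 6.67 and 11.3 FPKM for Atic, and after median-of-ratios scaling both were highest in tumor 3.

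In the methionine cycle, which supplies the methyl donor S-adenosylmethionine, 1 of 7 genes averaging at least 1 FPKM had a range of at least 2-fold. Mat2a, the synthetase of the methyl donor outside liver, was the most abundant, with 53.5, 32.8 and 31.6 FPKM. Ahcy, which removes the product of methylation, had its lowest level where Mat2a was highest, with 9.60, 18.1 and 14.0 FPKM. The largest range was that of Ahcyl2, a relative of Ahcy, with 7.05, 1.23 and 2.42 FPKM. Bhmt and Bhmt2, the betaine-dependent enzymes of liver and kidney, had no read in any tumor. In transsulfuration, Cth had 4 reads in tumor 1 and none in the other tumors, and Cbs stayed below 0.05 FPKM in each. Transcripts of the route from homocysteine to cysteine were thus near or below detection in all 3 tumors.

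Among other enzymes of serine and glycine, 3 of 7 genes averaging at least 1 FPKM had a range of at least 2-fold, namely Gatm, Gcat and Gss, of which Gcat and Gss were chosen after their values were seen. Gatm, which uses glycine for creatine synthesis, had 6.31, 1.00 and 0.706 FPKM and was 8.94-fold higher in tumor 1 than in tumor 3. Gcat, of the breakdown of threonine to glycine, had 1.85, 2.08 and 0.324 FPKM. Sptlc1, which condenses serine in sphingolipid synthesis, had 10.1, 6.98 and 7.30 FPKM, and Srr, serine racemase, had 9.16, 5.66 and 6.68 FPKM. In the oxidation of choline to glycine, Aldh7a1 had 0.835, 2.57 and 1.83 FPKM, Chdh stayed near 0.1 FPKM and Dmgdh had no read. Of the transporters, 1 of 4 averaging at least 1 FPKM had a range of at least 2-fold. Slc38a2, a carrier of small neutral amino acids, had 48.8, 52.2 and 26.0 FPKM, and Slc1a5 had 17.8, 29.0 and 20.7 FPKM.

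Of the genes for lipoylation and for the complexes that share Dld, 11 of 12 averaged at least 1 FPKM, and 1 of these had a range of at least 2-fold. Pdha1, of pyruvate dehydrogenase, had 23.4, 23.9 and 40.3 FPKM, with its highest level in tumor 3. Ogdh, of the 2-oxoglutarate dehydrogenase complex, had 28.3, 15.7 and 20.2 FPKM, the same order of tumors as Dld. Bckdhb, of the branched-chain complex, had 3.34, 1.99 and 4.21 FPKM.

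The ATF4 arm of the stress response is known to raise Phgdh, Psat1, Shmt2 and Mthfd2 in many cells. Of its 4 genes averaging at least 1 FPKM, 3 were highest in tumor 2, against 33.7% of all such genes. Below that average, Trib3 and Vldlr were highest in tumor 2 and Chac1 in tumor 3, while Asns was highest in tumor 1 and lowest in tumor 2. Atf4 had 30.8, 47.5 and 30.6 FPKM, and Ddit3 had 4.84, 23.7 and 9.86 FPKM. Of the members, Phgdh had its highest level in tumor 2 (after median-of-ratios scaling Shmt2 did too). The Psat1 and Mthfd2 levels as deposited were lowest there, but tumors 2 and 3 were not separable by counting error. Their ratios of tumor 2 to tumor 3 were 0.908 (0.817 to 1.01) for Psat1 and 0.898 (0.786 to 1.03) for Mthfd2. Myc had 55.2, 38.0 and 30.4 FPKM and its partner Max 22.2, 27.5 and 25.9 FPKM. Regulation of the members by these factors was not tested.

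Cell type markers differed between the tumors. T-cell markers were high in all 3 tumors, with 10 of 10 genes over 0.2 FPKM in every tumor, summed FPKM of 1489, 1095 and 1564, and 435, 166 and 443 FPKM for Cd8b1. The genes of this list did not share an order of the tumors. Cd8a (259, 122 and 218 FPKM), Trbc2 (195, 105 and 186 FPKM), Cd247 (25.9, 20.9 and 32.4 FPKM) and Cd2 (135, 101 and 104 FPKM) were, like Cd8b1, lowest in tumor 2 as deposited, whereas Cd3d (110, 135 and 183 FPKM), Cd3e (56.4, 78.1 and 65.3 FPKM), Cd3g (78.8, 106 and 91.8 FPKM) and Lck (160, 208 and 207 FPKM) were lowest in tumor 1, and Cd5 had 34.5, 53.7 and 32.9 FPKM. In these bulk samples, fewer cells of a type and less RNA per cell cannot be told apart. Macrophage markers were highest in tumor 1 for 6 of 7 genes, with summed FPKM of 342, 114 and 34.5, and their most abundant gene, Lyz2, had 215, 33.1 and 20.3 FPKM. Erythroid markers summed to 131, 27.1 and 3.46 FPKM, led by Hba-a1 with 92.3, 19.6 and 1.90 FPKM. Neutrophil markers summed to 35.9, 1.35 and 14.8 FPKM, mostly from S100a9 with 22.6, 1.01 and 10.4 FPKM and S100a8 with 13.2, 0.228 and 4.30 FPKM. Mpo and Ly6g each had 1 read in tumor 1 and none in tumors 2 and 3, and Elane had no read. Cd4 had 28.4, 4.28 and 8.22 FPKM. The macrophage and erythroid sums, S100a8, S100a9 and Cd4 were thus highest in tumor 1, as was Gldc, and their part in the Gldc level was not tested.

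The other marker lists differed between the tumors as well. Pancreatic acinar markers summed to 92.8, 481 and 0.955 FPKM, led by Ctrb1 with 33.9 FPKM in tumor 1, 198 FPKM in tumor 2 and no read in tumor 3, with no read of Ptf1a in any tumor. Fibroblast markers summed to 10.5, 42.6 and 0.353 FPKM, with 1.63, 15.5 and 0.315 FPKM for Col1a1. Dcn, with 5.04, 3.27 and 0.00825 FPKM, was highest in tumor 1, and the other genes of that list in tumor 2. Adipocyte markers summed to 0.646, 4.77 and 0.118 FPKM, led by Fabp4. B-cell markers summed to 62.1, 50.2 and 118 FPKM, led by Cd79a with 23.1, 7.31 and 49.0 FPKM. Cd22 alone had 36.5 FPKM in tumor 2, and the other 5 B-cell markers summed to 56.2, 13.7 and 104 FPKM. Endothelial markers summed to 13.5, 12.8 and 5.12 FPKM, mostly from Pecam1 with 12.2, 10.9 and 4.86 FPKM. Of the other genes, Kdr was highest in tumor 1 (0.483, 0.374 and 0.0960 FPKM). Cdh5 (0.805, 1.39 and 0.126 FPKM) and Emcn (0.0421, 0.136 and 0.0356 FPKM) were highest in tumor 2. Hepatocyte markers, of a tissue known for high Gldc, had no read in any tumor for 5 of 5 genes.

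Markers of 4 further cell types were chosen after the Gldc values were seen, 3 of them known for Gldc expression. Kidney tubule markers had no read in any tumor for 4 of 5 genes, Umod among them, and Lrp2 had 4 reads in tumor 1. Pluripotent cell markers had no read for 3 of 4 genes, Sox2 among them, and Pou5f1 had 1 read in tumor 1. Astrocyte markers summed to 0.692, 7.83 and 0.333 FPKM, with most of it from Aldoc in tumor 2 (7.79 FPKM). Epithelial markers summed to 14.2, 2.77 and 0.933 FPKM. Of that sum, Cdh1 had 13.7, 0.934 and 0.410 FPKM, and the other 4 genes summed to 0.561, 1.84 and 0.523 FPKM, with the highest sum in tumor 2. Among these 4, Epcam had 0.415, 1.14 and 0.307 FPKM, and Krt5 had no read in any tumor. The part of any of these cell types in the Gldc level was not tested.

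**Figure D5:**
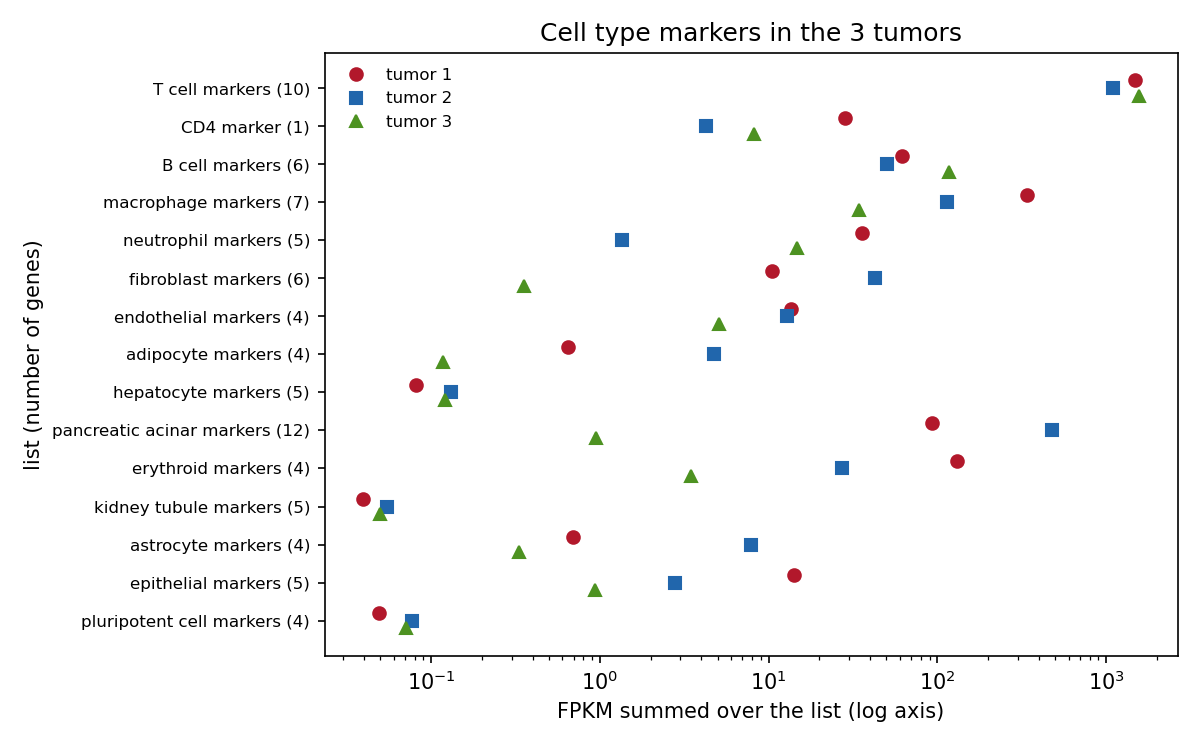
FPKM summed over each list of cell type markers (log axis) in tumors 1, 2 and 3, with the number of genes in parentheses and genes without a read entered at the small value the table holds. Hepatocyte, kidney tubule and pluripotent cell markers lie below 0.2 FPKM in all 3 tumors, and macrophage and erythroid markers are highest in tumor 1.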

How the data were processed

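Total RNA from 3 independent Dnmt3b+/- PTCL was sequenced as paired-end reads of 150 bp. STAR was used by the authors for alignment of the trimmed reads to mm10, and SeqMonk for counting those of mapping quality 50 or above, and the deposited values are FPKM for each tumor, on a linear scale. Versions and the use of strand were not given in the sources used here. The 3 WGBS samples were not analysed here.

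The members and gene lists were chosen with earlier results of these data known. Where no read was counted, the table holds the FPKM that 0.9 read would have, and the depth of each library was derived from it. Reads per gene followed from exon lengths of GENCODE M21, and 93.1% to 93.2% of genes with a length gave whole reads (within 0.05 read) or none in a tumor. For Gldc, the exons of its main transcript inside the bounds in the table (3754 bases) were used, because all annotated exons (6091 bases) did not give whole reads. Intervals for a level are exact Poisson intervals and those for a ratio are Clopper-Pearson intervals. With 1 group of 3 tumors no test was made. For a repeated symbol the row with the highest mean was used.

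Named genes were all members, the 2 most abundant genes and the gene with the widest range (mean FPKM of at least 1) of each pathway, regulator and proliferation list, the most abundant gene of each marker list, and the 5 genes closest to Gldc and to the sum over the members. Others were named after their values were seen, and some genes that the rule names are not reported here. Alternatives covered the scale of the libraries, thresholds, pseudocounts and each tumor left out. The tools were matplotlib 3.10.9, SciPy 1.17.1, NumPy 2.4.6 and pandas 2.3.3 under Python 3.11.15, and scripts were tested on simulated data.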

Additional observations from a re-analysis of the deposited data

How the results depend on the processing

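The count of members with a range of at least 2-fold, 3 as reported, depended on the setting. It was 1 at 3-fold, 6 at 1.5-fold and 1 after median-of-ratios scaling (32.5% of genes averaging at least 1 FPKM). With a tumor left out it was 0 to 2, with 0 when tumor 1 was left out. Shares of all genes were not computed for 3-fold, 1.5-fold or a tumor left out, so these counts cannot be set against a background. After scaling to Cd3d, Cd3e, Cd3g and Lck (an alternative chosen after seeing the data) it was 6. Of the 9 members averaging at least 1 FPKM it was then 5, against 47.0% of genes with such an average. Both counts depend on the choice of markers, since Cd3d, Cd3e, Cd3g and Lck were all lowest in tumor 1. By contrast, Cd8a, Cd8b1, Trbc2, Cd247 and Cd2 were lowest in tumor 2 and Cd5 in tumor 3. The count of wider pathway genes, 9 as reported, was 5 with a pseudocount of 1, 22 without a filter on mean FPKM and 5 to 6 with a tumor left out. Shares of all genes were not computed for these settings. After median-of-ratios scaling the members highest in tumor 2 were 2 (36.7% of genes averaging at least 1 FPKM) and those highest in tumor 3 were 1 (26.4%). Rescaling each tumor to a sum of 1000000 changes the unit, and gave a mean of 56.4 for Gldc and a median of 53.4 for the members. With a tumor left out, the Gldc mean ran from 0.0121 to 15.9 FPKM, the median of the members from 7.47 to 12.2 FPKM, the Shmt2 to Shmt1 ratio from 7.75 to 9.21 and the Mthfd2 to Mthfd1 ratio from 0.593 to 0.811. The count of members over 0.2 FPKM in every tumor was 9 at 0.1 FPKM and 8 at 1 FPKM, thresholds for which the share of all genes was not computed. Amt, with 22 to 68 reads, was limited by depth, and so was the bound on Gldc in tumors 2 and 3. No paired analysis was possible because the RNA-seq samples form 1 group.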

Other observations

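Asns, asparagine synthetase and a target of ATF4, had 66, 4 and 30 reads in tumors 1, 2 and 3, or 0.785, 0.0771 and 0.528 FPKM. It was thus lowest in tumor 2, where Atf4, Atf5, Ddit3 and Trib3 were highest. Atf5 had 3.28, 9.79 and 3.38 FPKM, and Trib3 had 0.597, 1.61 and 0.498 FPKM. Asns, Atf5 and Trib3 were chosen after their values were seen.

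Among 11197 genes averaging at least 1 FPKM, 14 had over 99% of their total in tumor 1, 15 had it in tumor 2 and 0 had it in tumor 3. Folr2, a folate receptor gene also found on macrophages, had 0.505, 1.88 and 0.218 FPKM and was highest in tumor 2, as was the macrophage gene Cd68 with 19.6, 51.2 and 9.27 FPKM, unlike the other 6 macrophage markers.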
